A study of Rattus norvegicus with 8 samples.

Results

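The 10 genes described here encode the hepatocyte transporters that carry bile acids and the lipids they are secreted with: 4 uptake genes (Slc10a1, Slco1a1, Slco1a4 and Slco1b2), 4 canalicular genes (Abcb11, Abcb4, Abcc2 and Atp8b1) and 2 genes of basolateral export (Abcc3 and Abcc4). They were taken as every probe set annotated to exactly 1 gene, that gene being one of these, which gave 13 probe sets of 31042 and 10 genes of 14217. Liver RNA came from male Sprague-Dawley rats aged 7 weeks, with 1 Affymetrix 3' expression array for each rat. The 4 L. brevis rats received CRF-1 chow with 10 g cholesterol, 5 g cholic acid and 10 g freeze-dried live Lactobacillus brevis 119-2 per kg for 2 weeks, and the 4 control rats the same chow with cholesterol and cholic acid but no bacteria, as the design text gives it. The control arrays carry a source label that mentions only CRF-1. By the design text both diets held a bile acid, and the difference between text and label was not settled by the data. Each diet group held 11 rats in the study, and the arrays are labelled as biological replicates.

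Bile acids circulate between liver and gut. Hepatocytes take them from sinusoidal blood with the sodium-dependent carrier NTCP, the product of Slc10a1, and with the sodium-independent organic anion transporters of the Slco1 family, then secrete them across the canalicular membrane into bile with the bile salt export pump BSEP, the product of Abcb11. The products of Abcc3 and Abcc4 can return bile acids to blood when their secretion is impaired. Bile acids bind the nuclear receptor FXR (Nr1h4), which pairs with RXR, induces Abcb11 and the repressor gene Nr0b2 (SHP), and through SHP lowers Slc10a1.

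No transporter differed between the diets at an adjusted p under 0.05. Slc10a1 had a slightly higher signal in all 4 L. brevis livers than in any control liver, and all 4 uptake genes had a higher L. brevis mean, by +0.13 to +0.74 log2 at the brightest probe set of each gene. The canalicular genes were divided, with Abcb11 and Abcc2 higher on average by +0.22 and +0.53, Abcb4 lower by 0.12 and Atp8b1 within 0.01 of 0. The dimmer probe sets of Slco1a4, Slco1b2 and Atp8b1 differed by +1.15, +1.03 and +0.55. Abcc3 and Abcc4 gave no measurable difference, because their deposited values were the same on all 8 arrays.

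Values are log2 signals as deposited, and a difference is L. brevis minus control. A probe set whose 8 values lay within 0.01 log2 held in effect 1 value on all arrays, by a step that the sources used here do not describe, and can show no diet difference. The others are called varying. Of the 10 genes 8 varied, at 11 of 13 probe sets, compared with 26.8% of the 14217 genes and 20.4% of probe sets. Array medians ran from 6.61 to 6.63 over all probe sets, most of which did not vary, so these medians could hardly differ. Over varying probe sets alone they ran from 8.15 in L. brevis 4 to 8.24 in control 1. The hepatocyte markers were among the brightest on the array, with means between 13.17 and 14.55 for 11 measured genes. The GAPDH control probe sets, which compare the 5' with the 3' end of the transcript and move with RNA integrity and labelling, differed by -2.20, -1.30, -0.94 and -0.68 in L. brevis rats 1 to 4 and by -2.89, -1.83, -2.93 and -1.98 in control rats 1 to 4. This end ratio, the 5' minus the 3' log2 signal, was higher in the L. brevis group on average, and its values are given beside the transporters below. The number of arrays limits the precision of every comparison. In whole liver, fewer cells of a type and less RNA per cell cannot be told apart.

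Slc10a1, the main carrier of conjugated bile acids, had 12.37, 12.45, 12.52 and 12.74 in L. brevis rats 1 to 4, against 12.32, 12.35, 12.05 and 12.24 in control rats 1 to 4. Every L. brevis value lay above every control value, although the lowest L. brevis and the highest control rat were nearly level. The mean was 12.52 ± 0.16 in L. brevis and 12.24 ± 0.14 in control livers (SD, n = 4 each), a difference of +0.28 with a 95% confidence interval from 0.03 to 0.53, or 1.21-fold. The limma test gave an unadjusted p of 0.0351 and an adjusted p of 0.385. Of the 3806 varying genes 6.91% were higher at an unadjusted p under 0.05, 10.4% had diets that did not overlap and 3.02% had all L. brevis values above all control values. The adjusted threshold was passed by 0.0525% of varying genes and 0.142% of all probe sets. That adjustment ran over all 31042 probe sets, including those that did not vary. A limma fit of varying probe sets alone gave Slc10a1 an adjusted p of 0.168. Among the 8 varying transporters Slc10a1 was the 1 gene at an unadjusted p under 0.05, against 20.6% of varying genes in either direction. That unadjusted p lay between 0.0508 and 0.0743 when L. brevis 2, 3 or 4 or control 3 or 4 was left out, and the difference between +0.20 and +0.33 over all 8 omissions. Adding the GAPDH end ratio to the model as a covariate gave +0.09 (SE 0.11).

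The 3 Slco1 genes encode organic anion transporting polypeptides of the sinusoidal membrane, which take up unconjugated bile acids, bilirubin and drugs. They are close relatives that lie near one another in RefSeq's GRCr8 annotation, so a probe of one may bind RNA of another. Slco1a1 had 9.07, 10.03, 9.90 and 10.44 in L. brevis rats 1 to 4, against 8.66, 9.37, 8.93 and 9.53 in control rats 1 to 4. L. brevis rats 2, 3 and 4 stood above all controls, while L. brevis 1 lay inside the control range. The difference was +0.74 (SE 0.35, 95% interval -0.10 to 1.58, adjusted p = 0.508, limma), or 1.67-fold, and -0.09 (SE 0.20) with the GAPDH covariate.

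Slco1a4, whose product also carries digoxin in rats, had 2 probe sets, and the diets overlapped in both. At the brighter one the values were 10.73, 11.92, 12.61 and 13.02 in L. brevis rats 1 to 4, against 11.50, 11.35, 12.22 and 12.71 in control rats 1 to 4. L. brevis 1 was the lowest of all 8 rats and L. brevis 4 the highest, so the mean difference of +0.13 (SE 0.59, 95% interval -1.30 to 1.55) was small beside the spread. The dimmer probe set had 7.87, 9.98, 10.88 and 11.19 in L. brevis rats against 8.37, 8.31, 8.74 and 9.90 in control rats, and differed by +1.15 (SE 0.82, 95% interval -0.85 to 3.15, adjusted p = 0.650, limma). Across the 8 rats the probe sets correlated (r = 0.89), yet their diet differences were far apart. The brighter probe set's difference was negative when any 1 of L. brevis 3 or 4 or control 1 or 2 was left out, from -0.19 to -0.02, and -0.62 without L. brevis 3 and 4 together. The dimmer probe set's difference was +1.85 without L. brevis 1, +0.75 without L. brevis 4, +0.10 without L. brevis 3 and 4, and -0.48 (SE 0.83) with the GAPDH covariate.

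Slco1b2, the liver-specific member, also had 2 probe sets. The brighter one gave 11.53, 11.45, 11.68 and 11.37 in L. brevis rats 1 to 4, against 11.08, 11.44, 11.15 and 11.42 in control rats 1 to 4. The groups overlapped through L. brevis 4, with a difference of +0.23 (SE 0.11, 95% interval -0.04 to 0.50, adjusted p = 0.519, limma). The dimmer one had 10.13, 10.21, 10.76 and 10.47 in L. brevis rats against 9.13, 9.88, 8.80 and 9.63 in control rats, and here the groups did not overlap. Its mean was 10.39 ± 0.28 in L. brevis and 9.36 ± 0.49 in control livers (SD, n = 4 each), a difference of +1.03, or 2.05-fold. Its unadjusted p was 0.00932 and its adjusted p 0.347 by limma, beside 22.9% of varying probe sets at an unadjusted p under 0.05, 9.44% that were also higher and 11.3% without overlap. With the GAPDH covariate that difference was +0.44 (SE 0.24). Both probe sets of Slco1b2 were higher in L. brevis livers on average, and they correlated over the rats (r = 0.87), but the size of the difference depended on the probe set.

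**Figure D1:**
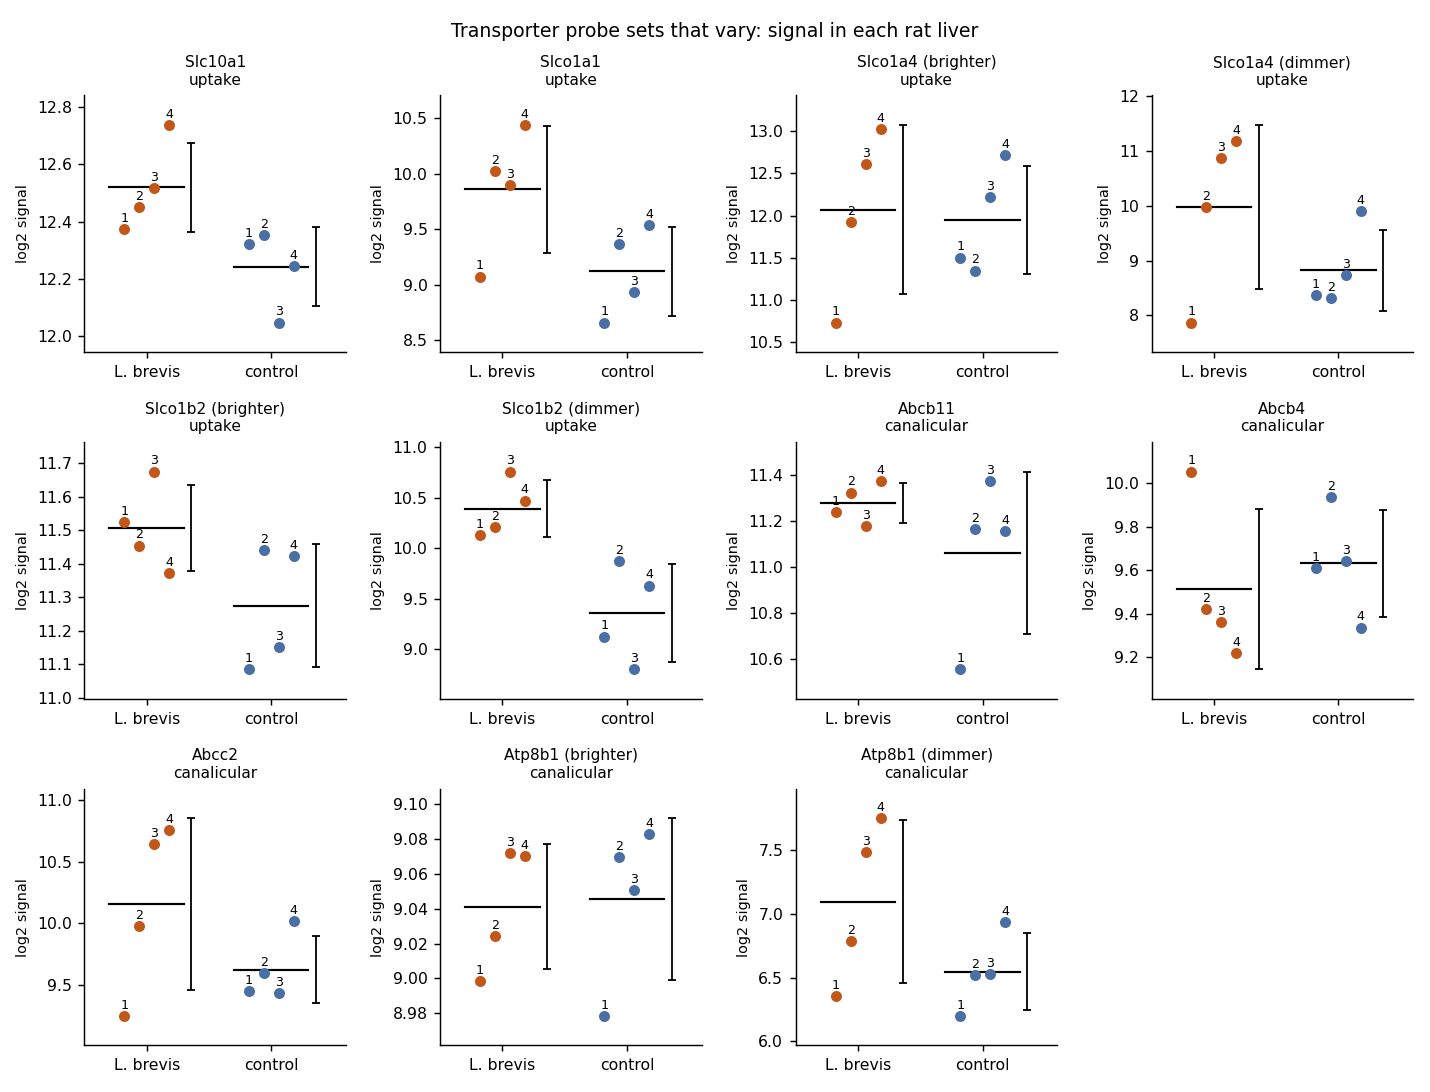
Log2 signal of the 11 varying transporter probe sets in each rat liver (points, numbered by rat), with L. brevis rats left and control rats right, the group mean as a line and the SD over 4 rats as a bar; each panel has its own axis, which does not start at 0. The diets are fully separated at Slc10a1 and at the dimmer Slco1b2 probe set. L. brevis 1 is the lowest of its group in every panel but those of the brighter Slco1b2 probe set, Abcb11 and Abcb4.

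Abcb11, the pump that sets the rate of bile acid secretion, had 11.24, 11.32, 11.18 and 11.37 in L. brevis rats 1 to 4, against 10.56, 11.16, 11.37 and 11.15 in control rats 1 to 4. The L. brevis livers lay close together, and control 1 stood below the other 7 rats. The difference of +0.22 (SE 0.18, 95% interval -0.22 to 0.65, adjusted p = 0.738, limma) was +0.05 (SE 0.08) without control 1. Abcb4, also called Mdr2, moves phosphatidylcholine into bile, where it shields membranes from bile acids. It had 10.05, 9.42, 9.36 and 9.22 in L. brevis rats 1 to 4, against 9.61, 9.94, 9.64 and 9.33 in control rats 1 to 4. L. brevis 1 was the highest of all rats and L. brevis 4 the lowest, and the difference was -0.12 (SE 0.22, 95% interval -0.65 to 0.42, adjusted p = 0.942, limma). It was -0.30 without L. brevis 1, -0.02 without L. brevis 4 or without control 2, and +0.20 (SE 0.29) with the GAPDH covariate.

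Abcc2 encodes MRP2, which exports conjugated bilirubin, glutathione and bile acids carrying sulfate or glucuronide. It had 9.25, 9.98, 10.65 and 10.76 in L. brevis rats 1 to 4, against 9.45, 9.59, 9.43 and 10.02 in control rats 1 to 4. L. brevis 3 and 4 were above all controls and L. brevis 1 below all of them. The difference was +0.53 (SE 0.37, 95% interval -0.36 to 1.43, adjusted p = 0.634, limma), -0.01 without L. brevis 3 and 4 and -0.28 (SE 0.30) with the GAPDH covariate. It was +0.84 without L. brevis 1 and +0.33 without L. brevis 4. Atp8b1, the flippase that keeps aminophospholipids on the inner side of the canalicular membrane, had 9.00, 9.02, 9.07 and 9.07 in L. brevis rats 1 to 4, against 8.98, 9.07, 9.05 and 9.08 in control rats 1 to 4 at its brighter probe set. These 8 values spanned 0.104 log2, with a pooled SD above that of 4.71% of varying probe sets, and the 95% interval of the difference ran from -0.07 to 0.07. Its dimmer probe set had 6.35, 6.79, 7.49 and 7.75 in L. brevis rats against 6.20, 6.52, 6.53 and 6.94 in control rats, with L. brevis 3 and 4 above all controls and a difference of +0.55 (SE 0.35, adjusted p = 0.615, limma).

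The basolateral exporters Abcc3 and Abcc4 held 6.88 and 6.48 in every rat of both diets, at 1 probe set each. Neither value can be read as an equal level in the rats, and no difference, spread or interval can be given for them. Median signals over the 8 rats were between 9.45 and 12.36 for the 4 uptake genes and between 9.06 and 11.21 for the 4 canalicular genes. Signals of different probe sets depend on their probes as well as on the RNA, so these ranges do not order the genes by abundance.

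**Figure D2:**
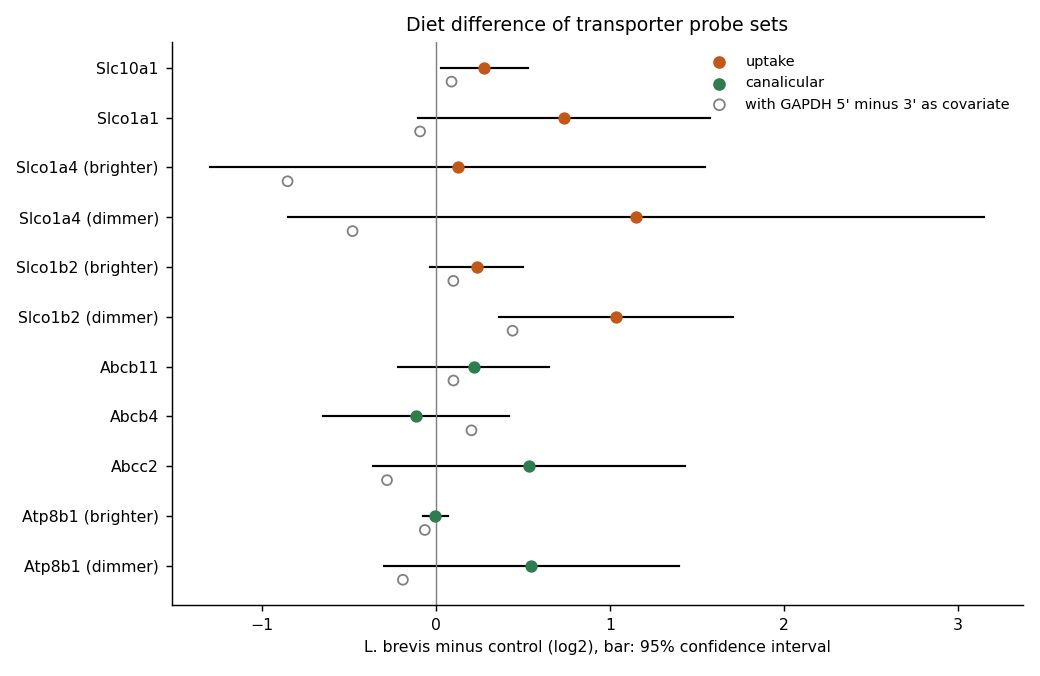
Difference between diets (L. brevis minus control, log2) of each varying transporter probe set, as filled points with 95% confidence intervals from limma, and as open circles with the GAPDH end ratio in the model. The intervals of Slc10a1 (0.03 to 0.53) and of the dimmer Slco1b2 probe set (0.36 to 1.71) leave out 0, and no probe set passed the adjusted threshold.

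By transport step with 1 probe set a gene, the 4 uptake genes were all higher on average with a median difference of +0.25, and 1 was at an unadjusted p under 0.05. The 4 canalicular genes were 2 higher and 2 lower with a median of +0.11, and 0 were at an unadjusted p under 0.05 by limma. Over all 3806 varying genes 42.0% had a higher L. brevis mean and the median difference was -0.04. Over the omissions of single rats the uptake median ran from +0.21 to +0.45, highest without L. brevis 1, and the canalicular median from +0.01, without control 1, to +0.16. With the GAPDH covariate the median was -0.002 for uptake and +0.02 for canalicular genes. The difference between the steps was not tested.

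Rats of the same diet differed most at Slco1a4. Its SD was 1.00 in L. brevis and 0.64 in control livers at the brighter probe set, and 1.50 in L. brevis and 0.74 in control livers at the other, which put the pooled SD above that of 96.0% and 98.1% of varying probe sets. Abcc2 had SDs of 0.70 in L. brevis and 0.27 in control livers and Slco1a1 had 0.57 in L. brevis and 0.40 in control livers, above 88.1% and 85.9% of varying probe sets when pooled. Abcb11 went the other way, with 0.09 in L. brevis and 0.35 in control livers, where control 1 was lowest. Slc10a1, with 0.16 in L. brevis and 0.14 in control livers, and the brighter Slco1b2 probe set, with 0.13 in L. brevis and 0.18 in control livers, varied less between rats and lay above only 30.3% and 33.6% of varying probe sets. The median pooled SD was 0.33 for the uptake genes, 0.28 for the canalicular genes and 0.21 for all varying genes, so the steps overlapped in spread and each held both steady and variable members. No test was made of these spreads.

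**Figure D3:**
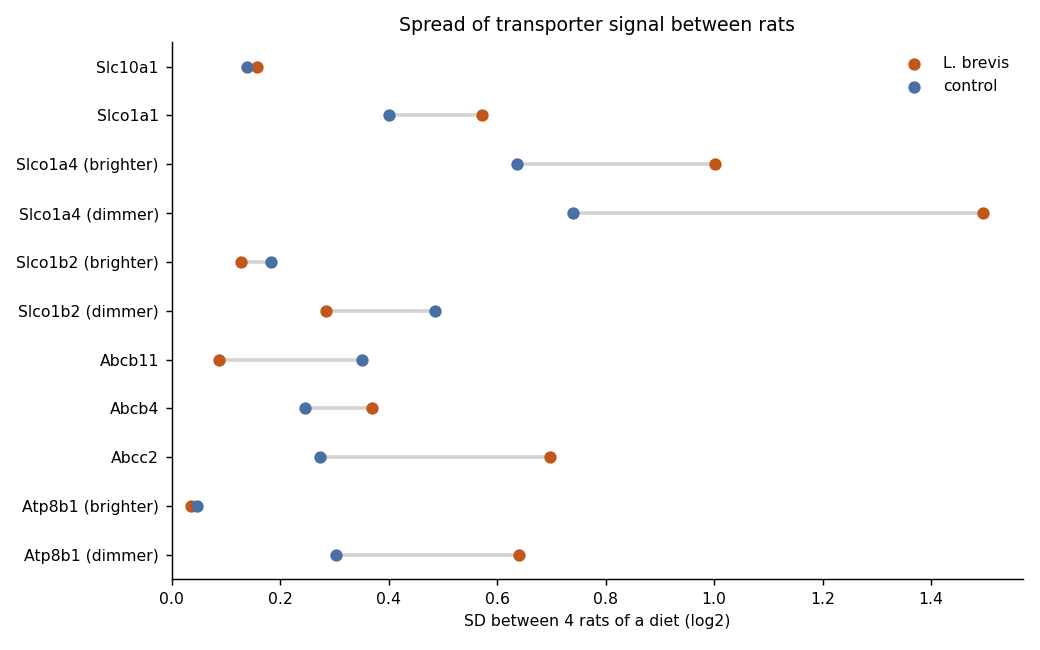
SD of the log2 signal between the 4 rats of each diet (L. brevis and control as points) for the 11 varying transporter probe sets. Slco1a4 has the widest spread in both diets, up to 1.50 in L. brevis livers, and Abcb11 is the probe set whose control SD (0.35) most exceeds its L. brevis SD (0.09) in ratio.

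Several transporters moved together over the rats. With each value centred on its diet mean, Slco1a4 correlated with Abcc2 (r = 0.91), Slco1a1 (0.77) and Atp8b1 (0.71), Slco1a1 with Abcc2 (0.84) and Atp8b1 (0.81), and Abcc2 with Atp8b1 (0.75), each over 8 rats. Abcb4 ran the opposite way, at -0.93 with Slco1a4, -0.85 with Abcc2 and -0.70 with Slco1a1. These are descriptions over few rats that share each array's RNA quality, and they are the 9 of 28 pairs with an r of at least 0.7 in size. The share of such pairs among all varying genes was not computed, so the count is not read as particular to the transporters. Each gene was represented in these pairs by its brightest probe set, whose values spanned only 0.104 log2 for Atp8b1. All varying transporter probe sets were also set beside the GAPDH end ratio within the diets. The r was 0.93 for Slco1a1, 0.86 for Abcc2, 0.71 for Slc10a1, 0.25 for Abcb11 and -0.57 for Abcb4. For the brighter and dimmer probe sets it was 0.65 and 0.77 for Slco1a4, 0.47 and 0.83 for Slco1b2, and 0.81 and 0.82 for Atp8b1. Among all 3806 varying genes 14.8% had an r above 0.7 and 18.6% one below -0.7. For the beta-actin end ratio the within-diet r was 0.96 for Slco1a1, 0.80 for Abcc2, 0.71 for Slc10a1, 0.37 for Abcb11 and -0.58 for Abcb4. At the brighter and dimmer probe sets it was 0.67 and 0.75 for Slco1a4, 0.17 and 0.60 for Slco1b2, and 0.74 and 0.79 for Atp8b1.

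**Figure D4:**
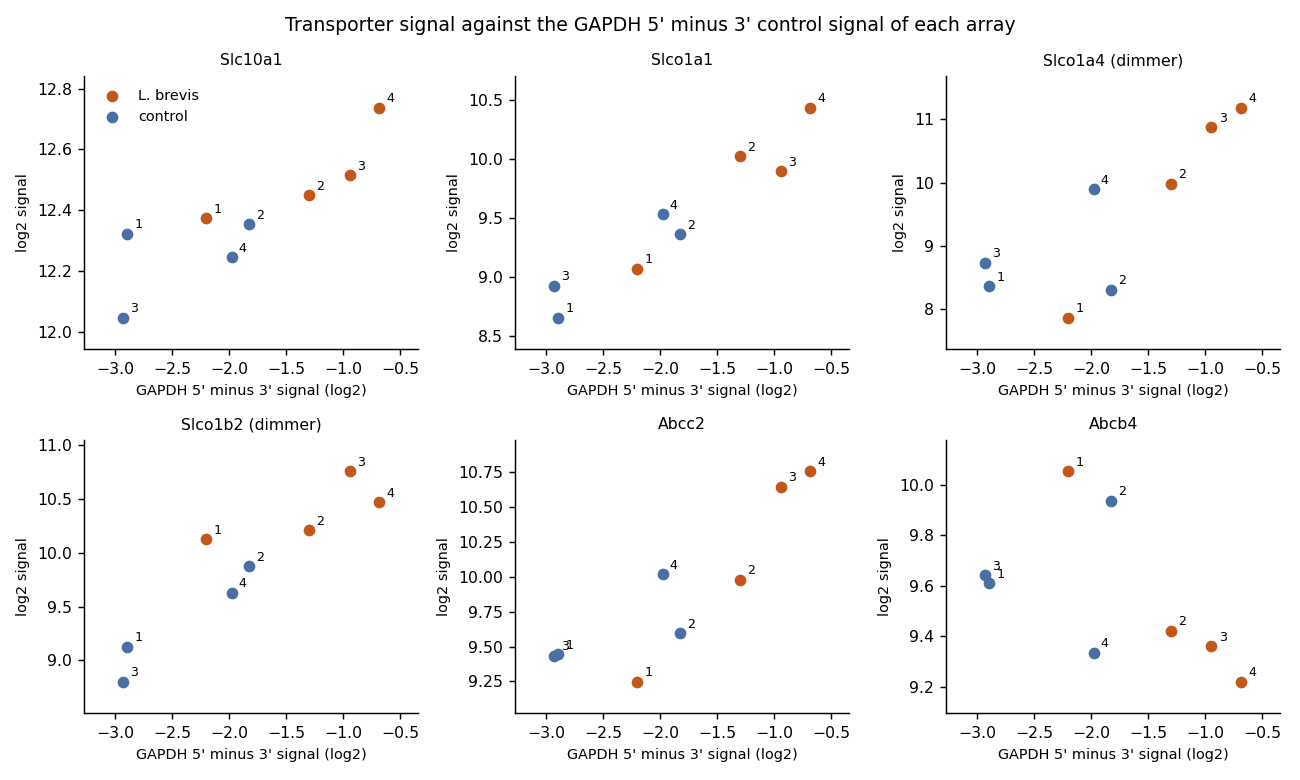
Log2 signal of 6 transporter probe sets (vertical, the dimmer ones for Slco1a4 and Slco1b2) against the GAPDH 5' minus 3' value of the same array (horizontal, log2) for L. brevis and control rats, numbered by rat. Slco1a1 follows the control signal closely over the 8 rats (r = 0.96), Abcb4 runs against it (r = -0.54), and L. brevis rats 2 to 4 have the 3 highest values on the horizontal axis.

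Of 12 gene pairs listed for known regulatory or functional ties, 9 could be tested over the 8 rats with exact permutation within the diets, after removal of the diet means. None passed adjustment over the 9. Slc10a1 and Cyp7a1, the rate-limiting enzyme of bile acid synthesis, had the highest r, 0.70 (rho = 0.43, exact permutation p = 0.0903 for r and 0.370 for rho, adjusted p = 0.641 and 0.972), and 0.67 without L. brevis 4 and control 3. Abcb11 and its regulator Nr1h4 had r = -0.54 (rho = -0.52, exact permutation p = 0.142 and 0.172, adjusted p = 0.641 and 0.972), and -0.26 without control 1 and control 3. Abcb11 and Nr0b2, both induced by FXR, had r = 0.10 (rho = 0.29, exact permutation p = 0.809 and 0.497, adjusted p = 0.977 and 0.972), and 0.71 without control 1 and control 3. By the highest r among varying genes, the likeness list began with Afm (r = 0.995), Cyp2c22 and Sbds (0.986 each) for Slco1a1, Ang (0.991), Mettl9 (0.983) and Isca2 (0.979) for Abcc2, and Ust5r (0.990), Sult1c2 (0.989) and Dhtkd1 (0.988) for Slco1a4. For Slc10a1 it was Pex7 (0.964), Rnf115 (0.949) and Swsap1 (0.948), for Abcb11 Sertad1 (0.959), Fggy (0.951) and Wfdc21 (0.927), and for Abcb4 the ribosomal protein genes Rpl35 (0.987) and Rpl7a (0.986) followed by Slc13a3 (0.973). For Slco1b2 it was Acsm3 (0.959), RT1-Db1 (0.954) and Hnrnpa0 (0.948), and for Atp8b1 it was Atad1 (0.979), Slc35b4 (0.975) and Alcam (0.973). Each r is the highest of 3805 over 8 rats, so high values are bound to appear.

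The promoters of 8 of the 10 genes, each 250 bases before to 50 bases after the 1 start that the promoter table uses, were read from RefSeq (GRCr8) and searched on both strands for the hexamer AGGTCA and for the FXR inverted repeat, GGTCA and TGACC with 1 base of any kind between them. The 2 motifs overlap, since most of the repeat's letters are also in the hexamer. No window was available here for Abcb11 or Abcc3, so their promoters were not searched. None of the 8 held the exact repeat, which 0.0388% of 33469 promoters of that length hold. The hexamer was in 3 of the 8, those of Slc10a1, Slco1b2 and Abcc2, and in 16.2% of all promoters. These 3 are shown, since they are the transporters whose window holds this nuclear receptor hexamer. They are written 5' to 3' with the hexamer in capitals, which reads TGACCT where it lies on the other strand. The windows are chr6:106357895-106358194 on the minus strand for Slc10a1, chr4:176282334-176282633 on the plus strand for Slco1b2 and chr1:252613625-252613924 on the plus strand for Abcc2.
Slc10a1: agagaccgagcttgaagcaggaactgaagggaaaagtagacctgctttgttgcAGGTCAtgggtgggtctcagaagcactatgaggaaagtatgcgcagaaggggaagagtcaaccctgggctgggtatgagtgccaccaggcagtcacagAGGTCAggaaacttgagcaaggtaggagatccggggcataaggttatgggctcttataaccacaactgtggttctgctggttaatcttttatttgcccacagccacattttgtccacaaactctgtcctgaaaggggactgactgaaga
Slco1b2: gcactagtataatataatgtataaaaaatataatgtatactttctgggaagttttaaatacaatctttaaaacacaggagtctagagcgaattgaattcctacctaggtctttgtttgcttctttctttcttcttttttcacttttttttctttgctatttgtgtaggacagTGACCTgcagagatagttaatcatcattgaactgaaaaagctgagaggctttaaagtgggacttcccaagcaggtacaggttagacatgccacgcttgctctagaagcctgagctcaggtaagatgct
Abcc2: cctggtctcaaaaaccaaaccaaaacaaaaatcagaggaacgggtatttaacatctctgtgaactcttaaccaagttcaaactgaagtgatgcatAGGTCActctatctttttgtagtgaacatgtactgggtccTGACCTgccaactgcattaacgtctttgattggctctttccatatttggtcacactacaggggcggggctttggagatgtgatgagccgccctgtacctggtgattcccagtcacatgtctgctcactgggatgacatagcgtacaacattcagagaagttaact
Slc10a1 had 2 hexamers on the gene's strand, starting 197 and 99 bases before the start, Slco1b2 had 1 on the opposite strand at 78 bases, and Abcc2 had 1 on each strand at 155 and 115 bases. Abcb4, Slco1a1 and Slco1a4 had no match in their windows, whose starts lie 295, 35 and 0 bases inside the gene's annotated span. The windows of Atp8b1 and Abcc4 also held none, but their starts lie 58.5 kb and 1.55 kb inside the gene's annotated span, so other starts of these genes were not searched. A match is a run of letters and does not show binding.

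The regulators of these transporters were divided between the diets. Of 22 measured bile acid sensors and regulators 18 varied, 9 higher and 9 lower in L. brevis livers on average (median 0.01). By limma, 1 higher and 2 lower regulators had an unadjusted p under 0.05, and 0 passed the adjusted threshold. Among varying genes 6.91% were higher and 13.7% lower at that unadjusted p. Nr1h4, the bile acid receptor, had 9.09, 9.32, 8.94 and 8.64 in L. brevis rats 1 to 4, against 9.84, 9.63, 9.42 and 9.28 in control rats 1 to 4. The groups overlapped only through L. brevis 2 and control 4, and the difference was -0.54 (SE 0.19, adjusted p = 0.355, limma), or -0.32 (SE 0.26) with the GAPDH covariate. Its unadjusted p lay between 0.0529 and 0.0622 without L. brevis 3 or 4 or control 1 or 2. Its partners pointed in opposite directions: Rxra differed by +0.48 (SE 0.18, adjusted p = 0.379) and Rxrb by -0.44 (SE 0.14, adjusted p = 0.347), and with the GAPDH covariate by +0.10 (SE 0.15) and -0.11 (SE 0.06). Nr0b2, an FXR target, had 9.11, 9.86, 8.38 and 9.17 in L. brevis rats 1 to 4, against 8.56, 9.25, 8.17 and 8.73 in control rats 1 to 4. Its groups overlapped widely, and the rat with the highest value was L. brevis 2 (+0.45, SE 0.37, adjusted p = 0.738). The Nr0b2 difference was +0.21 without L. brevis 2, +0.70 without L. brevis 3 and +0.28 without control 3.

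Among 28 other measured transporters 12 varied, 6 higher and 6 lower (median 0.00), 1 of each at an unadjusted p under 0.05, beside 6.91% higher and 13.7% lower among varying genes. Abcc6, a hepatic transporter of the MRP family, had 10.20, 9.24, 9.50 and 9.09 in L. brevis rats 1 to 4, against 11.15, 10.17, 10.99 and 10.31 in control rats 1 to 4. Only L. brevis 1 reached the control range, and the difference was -1.15 (SE 0.34, adjusted p = 0.347, limma), or -0.32 (SE 0.18) with the GAPDH covariate. Slco1a6 differed by +0.06 (SE 0.02) at signals near 6.0, with no overlap between diets. Among varying genes 10.4% had no overlap, and 3.02% had all L. brevis values above. A limma fit of varying probe sets alone gave Slco1a6 an unadjusted p of 0.106. Slc51a, a subunit of the basolateral bile acid exporter OST, held 6.32 in all rats, and its partner Slc51b was not analysed here.

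In the list of canalicular trafficking and polarity genes 11 of 24 varied, 5 higher and 6 lower (median -0.02). At an unadjusted p under 0.05 by limma there was 1 of each, beside 6.91% higher and 13.7% lower among varying genes. Tmem30a, which encodes the subunit that brings ATP8B1 to the membrane, had 10.03, 10.39, 10.64 and 10.82 in L. brevis rats 1 to 4, against 9.68, 9.96, 10.11 and 10.16 in control rats 1 to 4. L. brevis 1 lay inside the control range and the other L. brevis rats above it, for a difference of +0.49 (SE 0.20, adjusted p = 0.418, limma) and of +0.10 (SE 0.20) with the GAPDH covariate. Msn, the cytoskeletal linker moesin, had 4 L. brevis values below 4 control values, beside 10.4% of varying genes without overlap in either direction. The nearest rats, L. brevis 1 (8.59) and control 3 (8.61), were almost level. The Msn difference was -0.38 (SE 0.12, adjusted p = 0.347), or -0.19 (SE 0.16) with the GAPDH covariate. Of 15 FXR-induced and bile acid injury genes, a list that includes Abcb11 and Abcb4, 11 varied, 5 higher and 6 lower (median -0.02), with 0 at an unadjusted p under 0.05 by limma, beside 20.6% of varying genes.

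**Figure D5:**
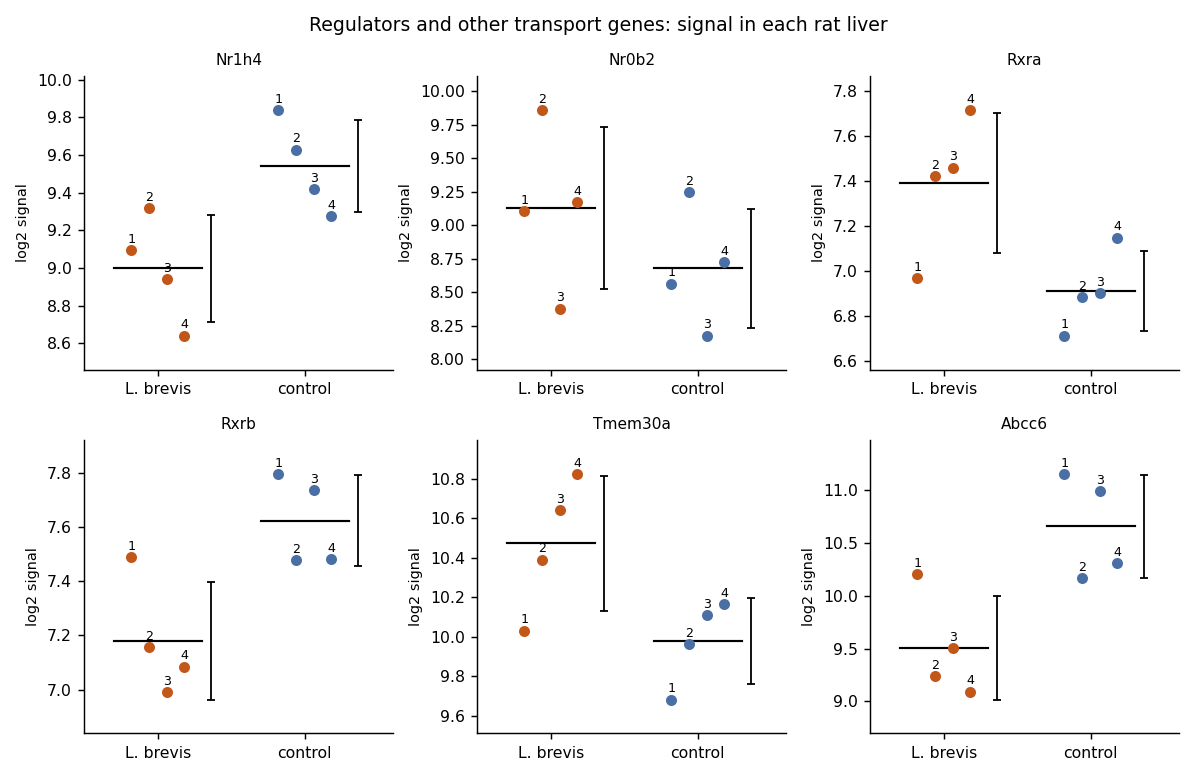
Log2 signal of Nr1h4, Nr0b2, Rxra, Rxrb, Tmem30a and Abcc6 in each rat liver (points, numbered by rat), L. brevis left and control right, with the group mean as a line and the SD over 4 rats as a bar; axes do not start at 0. Nr1h4, Rxrb and Abcc6 have lower and Rxra and Tmem30a higher L. brevis means, and the diets overlap in all 6 panels.

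Markers of other liver cells were read on the same arrays. Over 7 varying hepatocyte markers the mean log2 signal per rat was 13.44 to 13.56 in L. brevis and 13.50 to 13.57 in control livers. Of 9 measured endothelial markers 6 varied and all 6 were lower in L. brevis livers. Their mean per rat was 8.38 to 8.57 against 8.66 to 9.28 in control livers. By limma 3 of them had an unadjusted p under 0.05, Kdr (-0.46, SE 0.10), Pecam1 (-0.26, SE 0.06) and Stab1 (-0.83, SE 0.30). Of 7 varying Kupffer cell and macrophage markers 6 were higher in L. brevis livers, though Clec4f (+0.01) and C1qc (+0.04) only slightly, and Cd163 was lower (-0.16). Their mean per rat was 8.88 to 9.27 against 8.69 to 9.16 in control livers. An unadjusted p under 0.05 by limma was reached by 2, Adgre1 (+0.65, SE 0.17) and C1qb (+0.73, SE 0.28). Over all varying genes 20.6% had such a p, 6.91% higher and 13.7% lower. Of 8 cholangiocyte markers 2 varied, with 6.85 to 6.96 in L. brevis against 6.71 to 7.07 in control livers, and the defining keratin genes Krt7 and Krt19 did not vary. The mean of 9 periportal hepatocyte markers was 11.27 to 11.80 in L. brevis and 10.73 to 11.64 in control livers, and that of 8 varying pericentral markers was 9.59 to 10.13 in L. brevis and 9.71 to 10.13 in control livers. Of 12 skeletal muscle markers 10 varied, at 9.07 in L. brevis 2, between 6.54 and 6.55 in L. brevis 1, 3 and 4, and 6.46 to 6.56 in control livers. Without L. brevis 2 the Slc10a1 difference was +0.30 (SE 0.12, adjusted p = 0.549, limma). The part of the endothelial, macrophage and zonal markers in the transporter values was not tested.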

How the data were processed

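Liver RNA of 8 rats was measured on Affymetrix 3' arrays, labelled from Trizol-extracted, column-purified total RNA per the labels' protocols. The deposited table holds log2 signals that the authors had already normalized between arrays, by a method not given in the sources used here. Of its 31099 probe sets 57 were Affymetrix controls and were not tested. Symbols came from the platform annotation, in which 20826 probe sets had 1 symbol and 436 several, and were updated through gene identifiers.

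A linear model of diet was run on the other 31042 in R 4.3.3, using limma 3.58.1 (lmFit, then eBayes with trend) and two-sided tests, and p-values were adjusted by Benjamini-Hochberg over all of them at a threshold of 0.05. The fit was tested on simulated data with known shifts. A gene was represented by its probe set with the highest mean, and the others are given beside it. Named were all 10 transporters, Nr1h4, Nr0b2, Slc51a, Slc51b and Tmem30a, list genes at an unadjusted p under 0.05 and the 3 genes most like each varying transporter. Correlations used exact permutation of rats within each diet (576 arrangements). Members and lists were chosen with earlier results of these data known. Within each diet, every pair of arrays differed at every varying probe set. The replicate numbers of the labels are not stated to pair rats. Scan dates were not used here.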

Additional observations from a re-analysis of the deposited data

How the results depend on the processing

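No transporter passed the adjusted threshold under any of the alternatives run, and the count at an unadjusted p under 0.05, 1 of 8 genes as reported, was 3 with arrays centred on the median of varying probe sets, 4 with array weights, 2 with the mean of each gene's varying probe sets, and 0 with the GAPDH or beta-actin 5' minus 3' covariate and without L. brevis 3 and 4. Leaving out single rats gave 0 to 3. The lowest adjusted p of any transporter probe set was 0.0721, with median centring. The beta-actin covariate was chosen after seeing the data. The mean of a gene's varying probe sets moved the uptake median difference to +0.64, and array weights to +0.41. The mean of varying probe sets also raised the canalicular gene Atp8b1, to +0.27. The canalicular median was +0.06 with quantile normalization. That setting lowered the uptake differences too, to +0.20 for Slc10a1 and +0.70 for Slco1a1. At the brighter probe sets it gave +0.02 for Slco1a4 and +0.13 for Slco1b2. Without single rats the medians ran from +0.21 to +0.45 and from +0.01 to +0.16. Pathway genes at an unadjusted p under 0.05, 3 higher and 4 lower as reported, were 8 higher with array weights, 1 higher and 2 lower without L. brevis 3 and 4, and 1 lower with either covariate, and 1 to 7 higher and 2 to 5 lower without single rats.

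Directions turned with the covariates: Slco1a1 to -0.0926 (GAPDH) and -0.00603 (beta-actin), Slco1a4 to -0.85 and -0.75 at the brighter and -0.48 and -0.24 at the dimmer probe set, Abcc2 to -0.28 and -0.13, the dimmer Atp8b1 probe set to -0.19 and -0.0725, and Abcb4 to +0.20 and +0.17. Without L. brevis 3 and 4, Slco1a4 was -0.62, Abcc2 -0.0104 and Abcb4 +0.11. The brighter Atp8b1 probe set, at -0.004 as reported, was +0.0328 with median centring, +0.00853 with array weights, +0.55 at the other probe set and +0.27 as the mean of both. Without single rats the brighter Slco1a4 probe set ran from -0.19 to +0.57 and the brighter Atp8b1 probe set from -0.0265 to +0.00996. The cause was not tested. The covariates themselves differed between the diets. The replicate block, which rests on shared numbers alone, had 1 transporter at an unadjusted p under 0.05, Slco1a1 in place of Slc10a1, and gave 5 higher pathway genes. The deviations of same-numbered rats had r of 0.36, 0.20, 0.08 and 0.38. Those of rats with different numbers ran from -0.52 to 0.40, the highest for L. brevis 3 with control 4. Without centring on the diet means, Slc10a1 and Slco1b2 had r = 0.47, against -0.007 with it.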
